A study of Mus musculus with 6 samples.

Results

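The genes described here are the fibroblast growth factors Fgf1 and Fgf2, the receptors Fgfr1, Fgfr2 and Fgfr3, and 5 genes that signalling through these receptors switches on: Spry1, Spry2, Spry4, Dusp6 and Etv5. They were taken by symbol from a table of 14147 genes, and all 10 had a row and passed the filter on low values. The list was drawn up with the differences between the groups already known, so the values of these 10 genes in that comparison are a description and carry no p-value of their own. RNA sequencing was done on cultured primary mouse astrocytes labelled wild type, in 3 libraries given human IgG against the water channel aquaporin-4 (AQP4-IgG) and 3 given human control IgG (Control-IgG), all at 24 h. In neuromyelitis optica, an inflammatory disease of the central nervous system, patients carry such antibodies. The series title speaks of conditioned medium, and the labels do not say how the IgG reached the cells, nor the strain, the age of the animals or whether libraries came from separate cultures. P-values given below thus set the difference between the groups against the scatter of these 6 libraries within their groups, and that scatter may be technical.

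FGFs bind receptor tyrosine kinases on the cell surface together with heparan sulphate chains, and the receptors pass the signal through adaptors to RAS and the kinase ERK. ERK activity raises transcription of its own brakes, among them the Sprouty proteins and the ERK phosphatase encoded by Dusp6, and of ETS factors such as Etv5, which is why these transcripts are widely used as a readout of the pathway. Astrocytes make FGF2 and carry FGF receptors, and in mice FGF receptor signalling has been reported to hold back astrocyte reactivity.

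With AQP4-IgG, Fgf2 transcripts were 1.30-fold higher, while Spry1 and Dusp6 transcripts averaged 0.789 and 0.880 of their control level. The receptors, Spry4 and Etv5 overlapped between the groups. Fgf2 was the 1 gene of the 10 past the threshold, an adjusted p under 0.05 in limma over 12334 genes; 0 of the 10 were past it in the lower direction, and 4 of the 10 had an unadjusted p under 0.05. Over all tested genes 2.09% passed, 1.46% as higher and 0.632% as lower, and 13.3% had an unadjusted p under 0.05, and nothing about the 10 genes as a set is read from their counts, since they were chosen on this contrast. Their median log2 difference was -0.01, against 0.00 over all tested genes. Log2 differences here are AQP4-IgG minus Control-IgG of log2(FPKM + 1), where FPKM are reads or fragments scaled to exon length and library size, and errors are SD over n = 3 libraries unless named SE.

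**Figure D1:**
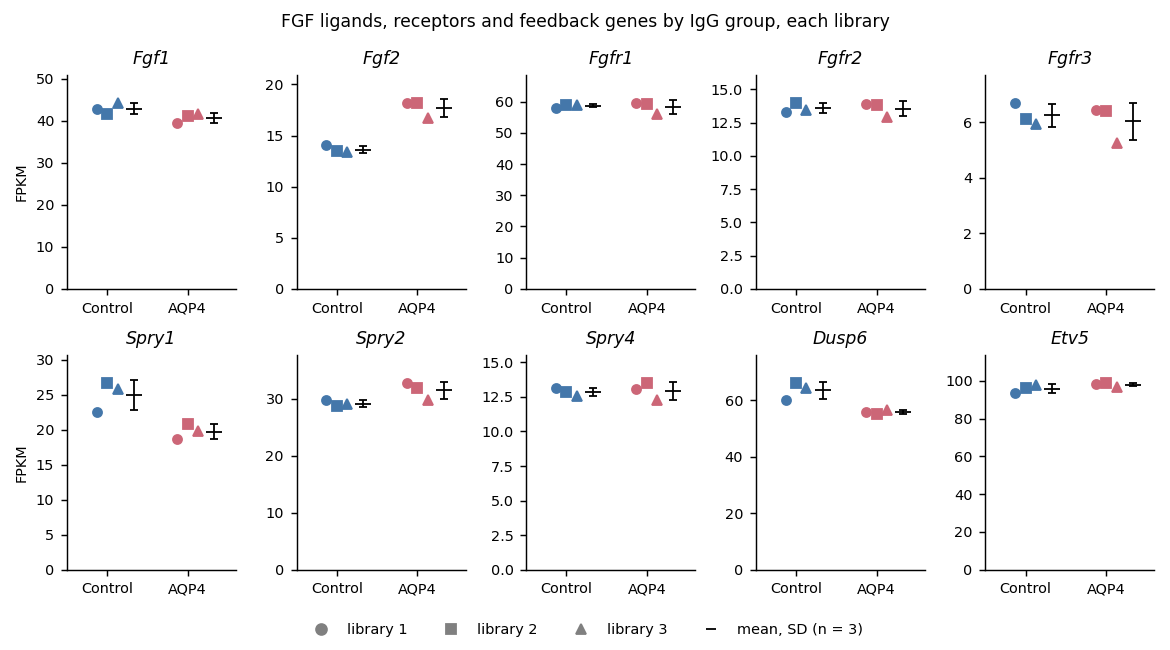
Level of each of the 10 genes (FPKM, vertical axis from 0) in the Control-IgG and AQP4-IgG libraries. Points are libraries, with the shape giving the library number, and the bar is the mean ± SD (n = 3). The AQP4-IgG points lie above the control points for Fgf2 and Spry2 and below them for Fgf1, Spry1 and Dusp6.

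By recovered reads the libraries held 17.9 to 20.6 M reads. The 8 genes whose reads could be recovered had 775 to 12091 reads per library, a counting error of 0.909% to 3.59%, which covers sampling of reads only. Within groups the coefficient of variation of the 10 genes ran from 0.821% to 11.2%, against medians of 5.37% and 5.90% over tested genes with AQP4-IgG and Control-IgG. All 10 astrocyte markers had a row and 3 rose (Aqp4, Slc1a3 and Slc1a2), where 1.46% of all tested genes did. The summed level of the 10 was 560.9 to 601 FPKM with AQP4-IgG and 464.7 to 525.5 FPKM with Control-IgG. Its largest parts were Fabp7 (group means 205 and 174 FPKM) and Aqp4 (130 and 104 FPKM). Fabp7 and Aldh1l1 lay above every control library in all AQP4-IgG libraries and did not pass. Gfap, Sox9, Gja1, Aldoc and S100b overlapped between the groups, and Aldoc and S100b averaged lower with AQP4-IgG. Microglia and macrophage markers were present too (10 of 10, summed 1035 to 1178 and 1040 to 1333 FPKM, with 1 lower, Cx3cr1). Most of this sum was Lyz2, whose group means were 825 FPKM (AQP4-IgG) and 833 FPKM (Control-IgG). Itgam went the other way from Cx3cr1, each AQP4-IgG library exceeding every control, and did not pass (adjusted p = 0.0707 in limma). Csf1r and C1qb were below every control library in all AQP4-IgG libraries and did not pass either. Also present were 8 of 10 fibroblast, meningeal and mural markers, summed 2189 to 2546 FPKM with AQP4-IgG and 2860 to 3133 FPKM with Control-IgG. Most of that came from the smooth-muscle actin gene Acta2. It was the 1 gene of the 8 past the threshold (log2 difference -0.38, adjusted p = 0.0243 in limma). The contractile genes Cnn1 (log2 difference -0.29, adjusted p = 0.0574 in limma) and Tagln (-0.24, adjusted p = 0.129 in limma) also lay below every control library in all AQP4-IgG libraries and did not pass. Of the oligodendrocyte markers 6 of 9 had a row, with sums of 222 to 242 and 247.5 to 259.7 FPKM, while Pdgfra, Sox10 and Mog had no row. Olig1 and Olig2 lay below every control library in all AQP4-IgG libraries and Cnp above, and they did not pass. Of 6 endothelial markers 3 had a row (4.93 to 5.48 and 4.43 to 4.85 FPKM), without Pecam1, Cldn5 and Tek. Of 6 neuronal markers 3 had a row (78.9 to 86.1 and 78.4 to 86.2 FPKM), without Rbfox3, Snap25 and Syt1, and of 5 ependymal markers 2 (47.3 to 53.7 and 40.2 to 46.7 FPKM). In bulk RNA fewer cells of a type and less RNA per cell cannot be told apart, and the part that other cells had in the differences below was not tested.

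Among the ligands, Fgf2 encodes a growth factor that lacks a signal peptide and leaves cells by an unconventional route. It lies on the plus strand of chromosome 3 (37348346 to 37410108, GRCm38; ENSMUSG00000037225). Its level was 18.2, 18.1 and 16.7 FPKM in AQP4-IgG libraries 1 to 3 and 14.1, 13.5 and 13.3 FPKM in Control-IgG libraries 1 to 3. Every AQP4-IgG library lay above every control library, and the gap between the groups, from 14.1 to 16.7 FPKM, was wider than the range within either group. The means were 17.7 ± 0.878 and 13.6 ± 0.378 FPKM, a log2 difference of 0.35 (SE 0.050). The libraries held 2330 to 2535 reads of this gene with AQP4-IgG and 1638 to 1939 with Control-IgG. With a library left out the log2 difference lay between 0.33 and 0.39, but Fgf2 was no longer past the threshold without AQP4-IgG 1, without AQP4-IgG 2 or without Control-IgG 2, fits that called 81, 66 and 55 genes in all against 258 with every library.

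Fgf2 shares its end with a gene on the other strand. Nudt6, which encodes a nudix hydrolase and is also known as the FGF2 antisense gene, lies on the minus strand (37404910 to 37420211) and overlaps 640 bases of Fgf2 exon, or 9.44% of its exon length. Whether reads were counted by strand is not given in the sources used here, so reads in those bases cannot be assigned to either gene. Nudt6 was low, at 1.2502, 1.84 and 1.504 FPKM with AQP4-IgG and 1.23, 1.76 and 1.397 FPKM with Control-IgG. Its groups overlapped, and its 42 to 63 reads per library were few beside those of Fgf2. Spata5, an AAA-family ATPase gene that follows downstream on the plus strand, averaged 5.39 ± 0.050 and 5.88 ± 0.450 FPKM (log2 difference -0.11, adjusted p = 0.555 in limma). Spry1 lies on the same strand 229.8 kb beyond the end of Fgf2, so the gene that passed as higher and a gene with a lower average are near neighbours. Fgf1 and Spry4 form a like pair on the minus strand of chromosome 18, 237.3 kb apart.

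Fgf1 encodes acidic FGF, which can bind every FGF receptor type. It was the more abundant ligand, with 39.4, 41.2 and 41.6 FPKM in the AQP4-IgG libraries and 42.8, 41.7 and 44.4 FPKM in the control libraries. The groups did not overlap, though the highest AQP4-IgG library (41.62 FPKM) and the lowest control library (41.65 FPKM) nearly met. The log2 difference was -0.07 (SE 0.042). Taken within libraries, the ratio of Fgf2 to Fgf1 was 0.462, 0.441 and 0.400 with AQP4-IgG and 0.329, 0.324 and 0.301 with Control-IgG. The sum of both ligands, 58.4 ± 0.835 and 56.6 ± 1.31 FPKM, overlapped between the groups. Of the 20 other FGF genes listed, 5 had a row and 4 were tested; 0 rose, 0 fell and all 4 did not pass, 0 of them with an unadjusted p under 0.05. These were Fgf7, a ligand for epithelial receptor forms (2.64 ± 0.147 and 2.60 ± 0.487 FPKM), Fgf18 (1.14 ± 0.175 and 1.10 ± 0.263 FPKM) and the intracellular FGF homologues Fgf12 and Fgf13. Fgf12, which binds sodium channels rather than FGF receptors, had the smallest p, with 5.88 ± 0.059 against 6.45 ± 0.419 FPKM (log2 difference -0.11, adjusted p = 0.462 in limma).

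Receptor transcripts overlapped between the groups throughout. Fgfr1, the main receptor here, had 59.7, 59.2 and 55.9 FPKM with AQP4-IgG and 58.1, 58.9 and 58.9 FPKM with Control-IgG. The groups overlapped, and the log2 difference of -0.01 had a 95% interval of -0.10 to 0.08. Fgfr2 averaged 13.5 ± 0.568 and 13.6 ± 0.357 FPKM, with an interval of -0.12 to 0.10. Fgfr3, widely used as an astrocyte marker, was the lowest of the 10 genes and the most variable with AQP4-IgG, at 6.43, 6.42 and 5.25 FPKM against 6.71, 6.11 and 5.93 FPKM. Its interval of -0.23 to 0.14 is wider and leaves room for changes of the size seen in Dusp6. Fgfr1 made up 74.9% ± 0.541 of the summed receptor FPKM with AQP4-IgG and 74.7% ± 0.462 with Control-IgG. Fgfr2 supplied 17.4% ± 0.027 and 17.3% ± 0.349, and Fgfr3 7.74% ± 0.555 and 7.97% ± 0.553. AQP4-IgG 3 had the lowest level of its group for each receptor, and the groups overlapped for all 3 shares.

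**Figure D2:**
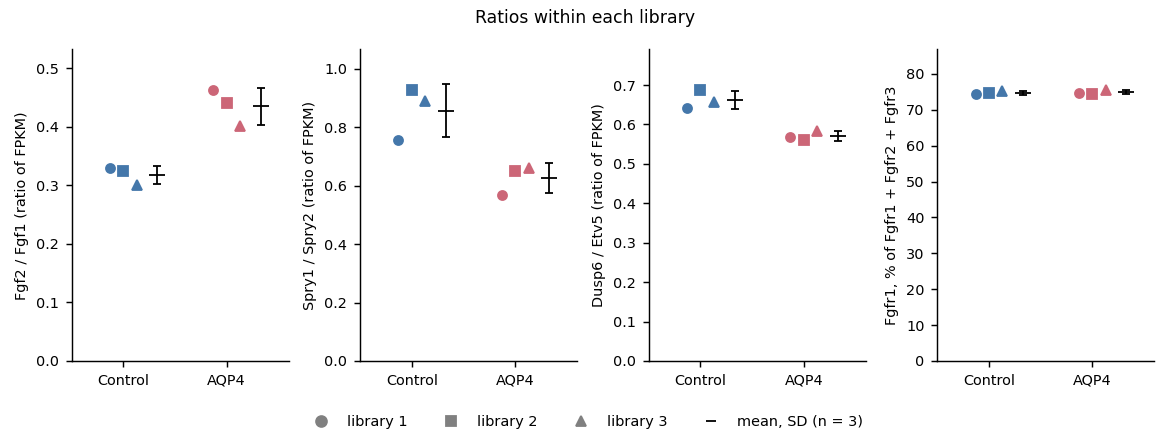
Ratios of FPKM taken within each library (vertical axes from 0): Fgf2 to Fgf1, Spry1 to Spry2, Dusp6 to Etv5, and the percent of receptor FPKM that is Fgfr1. Points are libraries, and bars are the mean ± SD (n = 3). The first 3 ratios do not overlap between the groups, and the Fgfr1 share stays between 74.3% and 75.5% in all 6 libraries.

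The Sprouty genes, which encode inhibitors of RAS-ERK signalling downstream of receptor tyrosine kinases, did not share a direction. Spry1 (chromosome 3, 37639947 to 37644598, plus strand) had 18.6, 20.8 and 19.8 FPKM with AQP4-IgG and 22.6, 26.6 and 25.8 FPKM with Control-IgG. Every AQP4-IgG library lay below every control library, and Control-IgG 1 was the control nearest to them. The means were 19.7 ± 1.09 and 25.001 ± 2.14 FPKM, a log2 difference of -0.32 (SE 0.067) that did not pass the threshold. Spry2 leaned the other way, with 32.76, 31.90 and 29.89 FPKM against 29.88, 28.69 and 29.04 FPKM. Its groups were separated by no more than 0.01 FPKM between AQP4-IgG 3 and Control-IgG 1, and the log2 difference was 0.11 (SE 0.045). Spry4 averaged 12.9 ± 0.634 and 12.9 ± 0.281 FPKM, with overlapping groups and an interval of the log2 difference of -0.11 to 0.12.

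Within libraries, Spry1 stood at 0.569, 0.652 and 0.661 of Spry2 with AQP4-IgG and at 0.756, 0.928 and 0.889 with Control-IgG. Spry1 made up 30.8% ± 1.63 of Sprouty FPKM with AQP4-IgG and 37.2% ± 2.48 with Control-IgG, and Spry2 49.1% ± 1.48 and 43.6% ± 1.78. The sum over the 3 Sprouty genes, 64.2 ± 2.16 and 67.1 ± 1.31 FPKM, overlapped between the groups. A transcript model of GENCODE's provisional class on the opposite strand, Gm42922, covers 24.4% of the exon bases of Spry1, so part of its reads are uncertain if strand was not used.

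Dusp6 encodes the cytoplasmic phosphatase MKP3, which acts on ERK. It lies on the plus strand of chromosome 10 (99263231 to 99267489). It had 55.7, 55.2 and 56.6 FPKM with AQP4-IgG and 59.99, 65.9 and 64.3 FPKM with Control-IgG. The AQP4-IgG libraries lay close together and all below the control libraries, of which Control-IgG 1 was again the nearest. The means were 55.8 ± 0.696 and 63.4 ± 3.08 FPKM, a log2 difference of -0.18 (SE 0.044) that did not pass the threshold. Etv5, an ETS transcription factor, was the most abundant of the 10 genes, with 98.2, 98.6 and 96.8 FPKM against 93.3, 95.96 and 97.9 FPKM. Its groups overlapped, with an interval of the log2 difference of -0.05 to 0.11. The ratio of Dusp6 to Etv5 was 0.567, 0.560 and 0.584 with AQP4-IgG and 0.643, 0.687 and 0.657 with Control-IgG, with no overlap. Of the 50-base stretches of Etv5 transcripts, 24.5% also occur in Gm4798, so the level of Etv5 is uncertain to that extent.

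Counting all 10 genes, every AQP4-IgG library lay above every control library for 2 of them (Fgf2 and Spry2) and below for 3 (Fgf1, Spry1 and Dusp6), and the groups overlapped for the other 5. Over all tested genes the groups were separated in this way for 10.4% upward and 8.58% downward. The count past the threshold depended on the fit for Spry1 and Dusp6. Both were past it, as lower, in 4 of 14 alternatives: with genes of a mean of at least 10 FPKM only, with the replicate number as a block, without Control-IgG 1, and in limma-voom on recovered reads, which called 4.38% of 11535 genes. In the authors' deposited table Fgf2 (higher) and Spry1 (lower), thus 2 of the 10 genes, have an adjusted p under 0.05. So do 2.91% of all rows (2.03% higher and 0.877% lower). The authors' own call of regulation in that table reads "no" for all 10 genes, Fgf2 and Spry1 among them. The authors' deposited log2 fold changes are 0.36 for Fgf2, -0.35 for Spry1 and -0.19 for Dusp6.

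**Figure D3:**
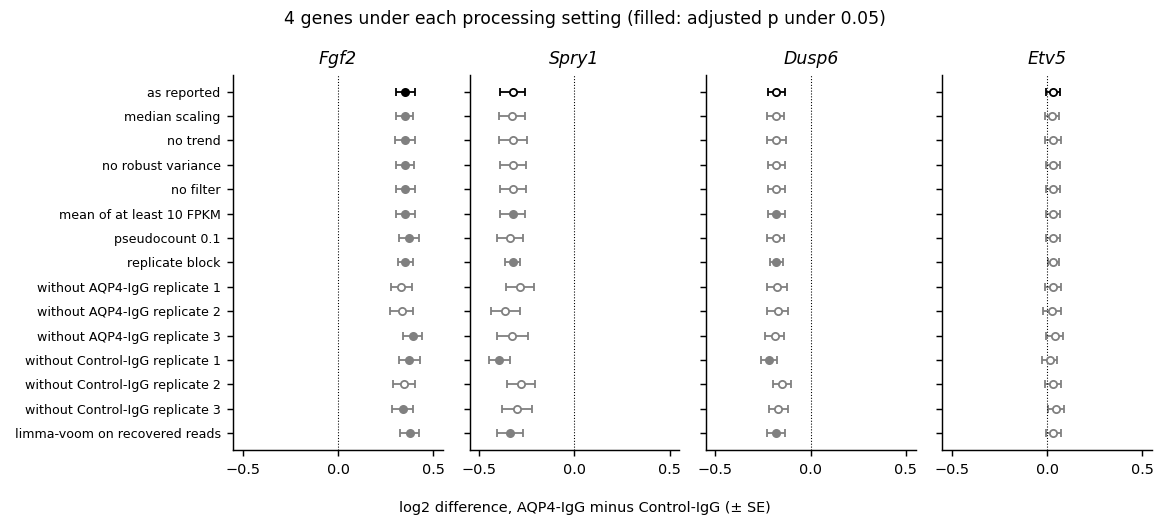
Log2 difference (AQP4-IgG minus Control-IgG, ± SE, horizontal axis) of Fgf2, Spry1, Dusp6 and Etv5 as reported and under each of 14 alternatives (vertical axis). Filled points have an adjusted p under 0.05 over all genes tested. Fgf2 stays between 0.33 and 0.39, Spry1 between -0.39 and -0.28 and Dusp6 between -0.22 and -0.15, while the filling of the points changes.

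Ordered by level per exon length over the 6 libraries, the genes ran Etv5, Dusp6, Fgfr1, Fgf1, Spry2, Spry1, Fgf2, Fgfr2, Spry4 and Fgfr3, with means from 96.8 down to 6.14 FPKM. By mean level they stood between the 50.7 and 97.3 percentile of the 14147 genes. Over all libraries the ranges of Dusp6 and Fgfr1 overlapped, as did those of Fgf2 and Fgfr2 and of Fgfr2 and Spry4. The order differed between the groups at 1 place: Dusp6 stood above Fgfr1 in all control libraries and overlapped it with AQP4-IgG. Fgf2 overlapped Fgfr2 in the control libraries and lay above it in all AQP4-IgG libraries.

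The promoters of Spry1 and Dusp6, the genes whose averages were lower, are shown because they gave values in the same direction. Each is the stretch of 250 bases before the RefSeq start site in GRCm38.p6, plus strand, with capitals for any match to the 9 motifs searched on both strands. The Spry1 stretch is chr3:37639697-37639946 and the Dusp6 stretch chr10:99262981-99263230.
Spry1: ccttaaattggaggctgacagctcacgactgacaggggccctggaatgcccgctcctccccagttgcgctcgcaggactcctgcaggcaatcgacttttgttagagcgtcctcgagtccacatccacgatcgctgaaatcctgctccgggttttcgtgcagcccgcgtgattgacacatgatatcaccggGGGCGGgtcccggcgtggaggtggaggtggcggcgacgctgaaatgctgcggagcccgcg
Dusp6: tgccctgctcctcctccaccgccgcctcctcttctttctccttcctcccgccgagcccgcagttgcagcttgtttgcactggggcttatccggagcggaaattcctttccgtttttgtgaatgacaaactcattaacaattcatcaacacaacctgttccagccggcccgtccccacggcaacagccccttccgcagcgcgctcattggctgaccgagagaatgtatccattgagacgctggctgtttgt
The motifs were the ETS motif CCGGAA, the serum response element (CCATAT, any 2 bases, GG), the AP-1 site TGANTCA and the CRE core TGACG. The others were the GC box GGGCGG, the ISRE core (GAAA, any 2 bases, GAAA) and the GAS element TTCNNNGAA. Also searched were the NF-kB site (GGG, any 2 bases, TTTCC) and the E-box CACGTG. Shorter ETS forms, such as GGAA, were not searched, and GGAA occurs in both stretches shown. The windows searched were 300 bases long, from 250 before to 50 after the start, and overlaps between motifs were allowed. Spry1 held a GC box at -60, a motif present in 35.7% of 32851 promoters of this length, and Dusp6 held no match to any of the 9. Fgf2 held a GC box at -49 and 2 CRE cores, and 20.8% of promoters hold at least 1 CRE core. The Fgf2 window (37348403 to 37348702) lies within the gene as placed above (37348346 to 37410108). These matches are thus before the RefSeq start site but not upstream of that gene span. The CRE cores are shown with the bases around them, since Fgf2 was the gene past the threshold.
Fgf2 at -140 (chr3:37348501-37348530): ctttaggagctgCGTCAccgcagtctcctg
Fgf2 at -6 (chr3:37348635-37348664): ggggacgcggggTGACGcggccccgggccg
Spry2 held the single match to the ETS motif CCGGAA among the windows found, at 34 bases after the start, against 14.9% of all promoters. Windows were found for 7 of the 10 genes and not for Fgf1, Fgfr1 and Spry4. These letters are a description of the windows and identify no bound factor.

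The wider pathway was looked at in 8 lists of co-receptors, heparan sulphate enzymes, cascade components, feedback genes and targets. Together they named 123 genes beyond the 10, of which 94 had a row and 88 were tested: 3 rose, 1 fell and 84 did not pass, and 20 had an unadjusted p under 0.05. Over all tested genes 1.46% rose, 0.632% fell and 13.3% had an unadjusted p under 0.05. The counts of each list below are given beside these shares as a description. Like the 10 genes, the lists were chosen with earlier results of these data known. Their counts and the p-values of their genes are thus not independent of those results. The median log2 difference of the 88 was 0.00, as over all tested genes. The genes that passed were Sulf1, Sulf2, Sdc3 and Errfi1. The count of 3 was 0 without AQP4-IgG 1, AQP4-IgG 2, Control-IgG 2 or Control-IgG 3, and 7 without Control-IgG 1. The count of 1 was 0 without AQP4-IgG 2 or Control-IgG 2 and 2 without Control-IgG 3.

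Among 12 tested genes of heparan sulphate synthesis and editing, 2 rose, 0 fell and 10 did not pass, with a median log2 difference of 0.04. The 2 encode the extracellular sulphatases that remove 6-O-sulphate groups from heparan sulphate, the chains through which FGF2 binds its receptors. Sulf1 had 9.15, 8.17 and 8.06 FPKM with AQP4-IgG and 6.19, 6.13 and 5.42 FPKM with Control-IgG, 1.43-fold higher with a log2 difference of 0.45 (SE 0.0685, adjusted p = 0.0155 in limma). Sulf2 had 49.2, 46.2 and 46.1 FPKM against 40.9, 41.3 and 40.02 FPKM, 1.16-fold higher (log2 difference 0.21, SE 0.041, adjusted p = 0.0433 in limma). For both genes the lowest AQP4-IgG library exceeded the highest control. Of the 12 genes, 5 lay above every control library in all AQP4-IgG libraries (Sulf1, Sulf2, Extl3, Hs2st1 and Ndst1) and 0 below. Over all tested genes 10.4% and 8.58% did. An unadjusted p under 0.05 was found for 4 of the 12, against 13.3% of all tested genes. Extl3, Hs2st1 and Ndst1 are named after their values were seen and did not pass. The call of Sulf2 ended without any 1 of the 6 libraries, without the trend and without the filter on low values (adjusted p up to 0.155), and that of Sulf1 without AQP4-IgG 1, AQP4-IgG 2, Control-IgG 2 or Control-IgG 3 (adjusted p up to 0.0598).

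Of 12 tested receptor relatives, co-receptors and carriers, 1 rose, 0 fell and 11 did not pass (median -0.03). An unadjusted p under 0.05 was found for 6 of the 12, against 13.3% of all tested genes. Sdc3, the heparan sulphate proteoglycan syndecan-3, rose from 36.5, 34.0 and 35.2 FPKM to 45.0, 44.7 and 41.8 FPKM, 1.24-fold (log2 difference 0.31, SE 0.046, adjusted p = 0.0153 in limma). The call ended without AQP4-IgG 1, AQP4-IgG 2, Control-IgG 2 or Control-IgG 3 (adjusted p up to 0.0847). Of the 12 genes, 3 lay above every control library in all AQP4-IgG libraries (Sdc3, Sdc4 and Flrt3) and 3 below (Gpc4, Ncam1 and Flrt2), where 10.4% and 8.58% of all tested genes did. The 5 beside Sdc3 are named after their values were seen and did not pass. Among them the heparan sulphate proteoglycan genes Sdc4 and Gpc4 differed in direction, with 218 ± 13.8 against 174 ± 18.3 FPKM and 172 ± 0.906 against 189 ± 5.93 FPKM. Fgfrl1, a receptor relative without a kinase domain, likewise named after its values were seen, was above each of the 3 kinase receptors in level, at 113 ± 4.98 and 114 ± 3.27 FPKM.

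Of 12 tested ERK feedback inhibitors beyond the 10 genes, 0 rose, 1 fell and 11 did not pass (median 0.03). An unadjusted p under 0.05 was found for 3 of the 12, against 13.3% of all tested genes. Errfi1, which encodes the EGF receptor inhibitor MIG6, fell from 16.7, 18.2 and 17.8 FPKM to 13.7, 13.1 and 13.7 FPKM. Its log2 difference was -0.36 (SE 0.048, adjusted p = 0.00984 in limma), and no library of a group reached the other group. The call ended without AQP4-IgG 2 or Control-IgG 2 (adjusted p up to 0.0562). Of the 12 genes, 3 lay below every control library in all AQP4-IgG libraries (Errfi1, Dusp1 and Dusp5) and 0 above, where 8.58% and 10.4% of all tested genes did. The phosphatase genes of the list, named after their values were seen, did not share a direction and did not pass: the log2 difference was -0.15 for Dusp1 and -0.21 for Dusp5, against 0.13 for Dusp4 and 0.07 for Dusp7, whose groups overlapped. The Sprouty relatives Spred1 and Spred2 averaged 27.0 ± 0.593 against 26.8 ± 0.280 FPKM and 39.0 ± 1.10 against 37.6 ± 0.812 FPKM.

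Of 22 genes for adaptors and the RAS-ERK cascade, 0 rose, 0 fell and 22 did not pass, 1 of them with an unadjusted p under 0.05, and with log2 differences between -0.09 and 0.11. The smallest p was that of the adaptor Shc1 (27.6 ± 0.475 against 25.5 ± 0.422 FPKM, log2 difference 0.11, adjusted p = 0.233 in limma). Of the 22, 2 lay above every control library in all AQP4-IgG libraries and 2 below, where 10.4% and 8.58% of all tested genes did. Of 15 tested ERK-induced transcripts, 0 passed in either direction at the adjusted threshold, 4 had an unadjusted p under 0.05, and the median was 0.03. Of the 15, 3 lay above every control library in all AQP4-IgG libraries (Ier3, Phlda1 and Etv4) and 1 below (Vgf). Phlda1, Etv4 and Vgf are named after their values were seen and did not pass. Ier3, an early response gene also induced by NF-kB, had the smallest p, with 51.9, 46.8 and 41.95 FPKM against 35.6, 25.7 and 21.8 FPKM (log2 difference 0.76, SE 0.190, adjusted p = 0.16 in limma). It passed with the replicate number as a block and without Control-IgG 1, the control library with the highest level. Of the 10 genes of a published MAPK activity score in their mouse form, 0 rose, 0 fell and 10 did not pass, 3 with an unadjusted p under 0.05, and the median was 0.03. The genes with such a p were Dusp6, Phlda1 and Spry2. In the score, 3 genes lay above every control library in all AQP4-IgG libraries (Phlda1, Spry2 and Etv4) and 1 below (Dusp6). Of the score's genes, 4 are among the 10 described above, so the score is not independent of them. The others are in the ERK-induced and feedback lists, so the score adds no further gene. Its most abundant member, cyclin D1 (Ccnd1), averaged 847 ± 35.2 and 847 ± 46.5 FPKM.

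Of 11 tested EGF and PDGF family ligands and receptors, which feed the same cascade, 0 rose, 0 fell and 11 did not pass (2 with an unadjusted p under 0.05, median -0.03). The heparin-binding ligand gene Hbegf had the smallest p, with 286, 281 and 299.99 FPKM against 312, 320.3 and 331 FPKM (log2 difference -0.15, SE 0.042, adjusted p = 0.132 in limma). It passed with the replicate number as a block. Of the 11 genes, 1 lay above every control library in all AQP4-IgG libraries (Nrg1) and 2 below (Hbegf and Ereg). Over all tested genes 10.4% and 8.58% did. Nrg1 and Ereg are named after their values were seen and did not pass.

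**Figure D4:**
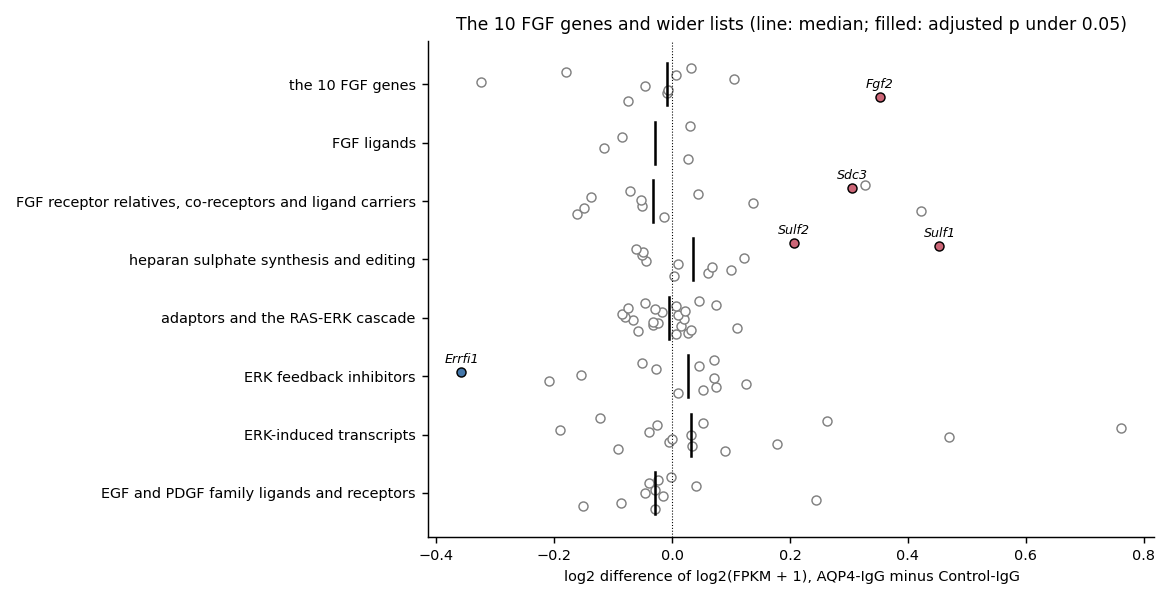
Log2 difference (AQP4-IgG minus Control-IgG of log2(FPKM + 1), horizontal axis) of each tested gene in the set of 10 and in 7 of the wider lists (rows). Each circle is a gene, filled where its adjusted p was under 0.05, and the vertical line is the row's median. The medians lie between -0.03 and 0.04, with Fgf2, Sdc3, Sulf1 and Sulf2 filled to the right and Errfi1 to the left.

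Patterns across the 6 libraries were compared by the root mean square difference of log2(FPKM + 1) less its mean. Genes with clone, predicted-gene or pseudogene names were left out of this search. The 5 tested genes nearest to Fgf2 were Hmga1b (0.0266), a chromatin protein gene whose sequence is close to that of Hmga1, the glutamate transporter gene Slc1a3 (0.0286), Sdc3 (0.0306), the tissue plasminogen activator gene Plat (0.0316) and the zinc finger helicase gene Znfx1 (0.0328). Their ratios of group means were 1.31, 1.26, 1.24, 1.29 and 1.30. The 5 nearest to Spry4, whose groups overlapped, were Pom121 (0.00925), Tmem246 (0.0100), Aqr (0.0104), Ino80e (0.0149) and Nsmf (0.0156). This likeness rests on 6 libraries in 2 groups and was not tested. Aqp4, which encodes the protein the antibodies bind, was 1.26-fold higher (adjusted p = 0.0216 in limma), a call that ended without the trend and without any 1 library other than Control-IgG 1 (adjusted p up to 0.106), and Gfap, the reactive filament gene, averaged 84.1 ± 6.97 and 77.7 ± 8.29 FPKM (adjusted p = 0.686 in limma).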

How the data were processed

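RNA was sequenced from 6 libraries of primary mouse astrocytes. Per the labels' protocols, RNeasy columns gave the RNA and a SMARTer mRNA-Seq kit the libraries, and the submitters' processing notes name GRCm38 and mm10. Aligner, counter and strand setting: not given in the sources used here. The authors deposited 1 table; its 6 value columns are FPKM by the authors' scaling, a unit inferred from the values. Multiplied by GENCODE M21 exon length they gave whole reads (within 0.1) for 98.99% to 99.14% of values under 200 reads, over genes whose coordinates equal M21, and hence the library totals. The same table holds the authors' log2 fold change and p-value per gene. The case columns carry a disease abbreviation and were taken as AQP4-IgG by their number and the 2-group design.

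limma 3.58.1 in R 4.3.3 was fitted to log2(FPKM + 1), with trend and robust variance and no block, on the 12334 genes averaging 1 FPKM or more, with p-values (2-sided) adjusted by Benjamini-Hochberg over all of them. The 10 genes and the lists were chosen with earlier results of these data known. Named beside the 10 were Nudt6, Spata5, Aqp4, Gfap, up to 3 genes per list past the threshold with the smallest p (or the 1 with the smallest p), and the 5 genes nearest to Fgf2 and to Spry4. An alternative, limma-voom, used recovered reads with their sums as library sizes. The limma fit was also run on simulated counts. Chi-square per gene of reads between libraries of a group was 3.70 to 6.80, so none were repeats of 1 library.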

Additional observations from a re-analysis of the deposited data

How the results depend on the processing

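The 14 alternatives were median scaling, no trend, no robust variance, the replicate block, a pseudocount of 0.1, either no filter or one at a mean of 10 FPKM, leaving out each library, and limma-voom on recovered reads, which left out Fgf1 and Spry4. The log2 differences of Fgf1, Fgf2, Spry1, Spry2, Dusp6 and Etv5 kept their sign in each alternative that held them; those of Fgfr1, Fgfr2, Fgfr3 and Spry4, all near 0, changed sign in some that left out a library. All genes past the threshold numbered 258 (180 higher, 78 lower): 55 to 391 (38 to 292, 17 to 99) with a library left out, 607 (392, 215) with the replicate block and 505 (335, 170) in limma-voom; without the trend 42 were lower. Of the 10 genes, 0 to 1 passed as higher and 0 to 2 as lower with a library left out, and 2 as lower with at least 10 FPKM, with the block and in limma-voom. In the wider lists 0 to 7 passed as higher and 0 to 2 as lower with a library left out, 7 and 4 with the block, and 5 as higher in limma-voom. The cause of these shifts was not tested. The labels do not say whether libraries with the same number share a culture or batch. Deviations of same-numbered libraries correlated at 0.200, 0.009 and 0.202, and those of differently numbered libraries between -0.268 and 0.082. Not every library correlated best with its own number, and pairing by number was not tested. Counting error reached 3.59% for Fgfr3, and Nudt6 had 42 to 63 reads a library.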
